A study of Mus musculus with 45 samples.

Results

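Interferon-stimulated genes are the genes that cells switch on when type I interferon reaches its receptor. The 9 examined here, Ifit1, Ifit3, Irf7, Irf9, Isg15, Oasl2, Ifitm3, Bst2 and Usp18, were taken by name as well-known genes of this response, with no cut on their values. Earlier results of these data were known when they were chosen. All 9 were found among the 15897 genes of the table, each under 1 Ensembl identifier. They were followed in hippocampal RNA of 45 female C57Bl/6J mice in 8 groups of genotype and diet. The study asked how a typical western diet acts on mouse models with β-amyloid, with tau, or with both.

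A+ mice carry APPswe/PS1dE9, a transgene with Swedish-mutant mouse/human APP and the human PS1 variant of that name, driven by a mouse prion protein promoter, and Aw mice are wild type for it. T+ mice carry human Tau P301L driven by a CaMKII promoter, which is active in forebrain neurons, and Tw mice are wild type for it. A+T+ mice come from a cross of both lines, and the controls are wild-type littermates. On the typical western diet (TWD, 21% fat, 0.15% cholesterol and 35% sucrose) there were 6 AwTw, 6 AwT+, 6 A+Tw and 6 A+T+ mice. On the standard diet (STD, 5% fat and no cholesterol) there were 6 AwTw, 6 AwT+, 5 A+Tw and 4 A+T+ mice. The diet ran in all groups from 7 months of age until sacrifice at 13 months. The data thus hold 1 sex and 1 age.

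In the type I interferon pathway, the receptor subunits IFNAR1 and IFNAR2 activate the kinases JAK1 and TYK2. Their signal leads to the complex ISGF3, of which IRF9 is a part and which binds the interferon-stimulated response element of target promoters. The targets include proteins that act on viral RNA or membranes, further transcription factors such as IRF7, and brakes on the pathway such as USP18. In the brain, microglia, astrocytes, endothelial cells and the epithelium of the choroid plexus can all express these genes, and microglia near amyloid plaques are known to express some of them.

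The core of the response element has the form GAAANNGAAA, where N is any base, and it was searched on both strands from 250 bases before to 50 bases after the start of each gene in RefSeq promoters of GRCm38.p6, the mouse build also called mm10. A promoter entry was found for 8 of the 9 genes. The core was present in 5 of these 8 (62.5%), against 3.99% of all 27025 genes with an entry and 3.62% of the 11615 genes that were also in the table. The longer form GAAANNGAAACT was present in 4 of the 8, against 0.303% of all genes. The 5 stretches with a match are printed here so that the elements can be compared. Each is written 5′ to 3′ on the strand of the gene, with capitals for the bases that match the core or its reverse complement TTTCNNTTTC.
Ifit1 (chr19:34640773-34640825, plus strand, -116 to -64 from the start): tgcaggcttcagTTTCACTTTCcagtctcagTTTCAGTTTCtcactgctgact
Ifit3 (chr19:34583361-34583428, plus strand, -168 to -101): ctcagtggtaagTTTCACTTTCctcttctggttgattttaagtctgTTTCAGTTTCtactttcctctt
Isg15 (chr4:156200863-156200908, minus strand, -90 to -45): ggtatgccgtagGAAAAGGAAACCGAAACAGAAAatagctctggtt
Bst2 (chr8:71537575-71537614, minus strand, -142 to -103): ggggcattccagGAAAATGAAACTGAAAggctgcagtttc
Ifitm3 (chr7:141010716-141010742, minus strand, 3 to 29 after the start): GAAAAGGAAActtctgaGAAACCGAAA
Isg15 held 3 overlapping matches in 1 run and Bst2 held 2 overlapping matches, whereas the 2 matches in Ifit1, Ifit3 and Ifitm3 stood apart. In Ifitm3 both lay after the start, and in the other 4 genes all lay before it. No match was present in the windows of Oasl2, Irf7 or Irf9, which says only that these letters are not in these windows.

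The values are variance-stabilised counts on a log2-like scale with batch removed (VSD values). A difference of 1 corresponds to about a doubling for abundant genes and understates the change of low ones. The values are not scaled to gene length, so levels are compared between groups and not between genes. Where markers are named by the highest values in their list, this is the order of the values as deposited, not of transcript abundance. The depth of each mouse cannot be read from them, so errors given here reflect how mice varied. The labels put 20 mice in batch 0 and 25 in batch 1 without saying what a batch marks. App, the gene that the A+ transgene adds to, ranged from 15.05 to 15.80 in the 21 A+ mice and from 14.29 to 14.86 in the 24 Aw mice, so every A+ mouse lay above every Aw mouse. The tau transgene was not checked. Of 8 hippocampal neuron markers, all 8 were in the table, with Camk2a at a mean of 15.85. Of the marker lists, the mean of the choroid plexus markers had the widest range over mice, 5.84 to 10.13, followed by that of the erythroid markers, 5.49 to 8.73. Ttr, the transthyretin that the choroid plexus secretes, ran from 7.49 to 18.08. In such bulk tissue, more cells of a type and more RNA per cell cannot be told apart.

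Of the 9 genes, 7 were higher in A+ than in Aw mice over both diets and both tau genotypes, and none was lower. Across all genes 3.11% were called higher and 0.661% lower in this comparison (limma, Benjamini-Hochberg adjusted p below 0.05). The median log2 difference of the 9 genes was 0.46, beside -0.02 for all genes tested. Ifit3, Oasl2, Ifitm3, Bst2, Usp18, Irf7 and Irf9 passed, while Ifit1 and Isg15 did not.

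Among the effectors, Ifit3 binds RNA-sensing partners of its family and Oasl2 is a mouse relative of the oligoadenylate synthetases that bind double-stranded RNA. On STD, Ifit3 ran from 6.98 to 8.15 with a median of 7.50 in the 12 Aw mice, and from 7.70 to 8.41 with a median of 8.22 in the 9 A+ mice. On TWD, it ran from 7.12 to 8.62 with a median of 8.00 in the 12 Aw mice, and from 7.78 to 9.18 with a median of 8.28 in the 12 A+ mice. The ranges overlapped on both diets, but 9 of 9 A+ mice on STD and 10 of 12 on TWD lay above the Aw median of their diet. The log2 difference was 0.48 ± 0.115 (SE; limma, adjusted p = 0.00704).

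Oasl2 showed the largest log2 difference of the 9 genes, 0.57 ± 0.129 (SE; limma, adjusted p = 0.0037). On STD its Aw values ran from 6.30 to 7.91 (median 6.73) and its A+ values from 7.07 to 7.79 (median 7.59). On TWD the Aw values ran from 6.63 to 7.82 (median 7.23) and the A+ values from 7.06 to 9.01 (median 7.52). The highest value, 9.01, belonged to a single A+Tw/TWD mouse, with the next in its group at 8.08. The highest Aw value on STD, 7.91, also came from 1 mouse, which stood above all 9 A+ mice of that diet.

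Ifitm3 and Bst2 encode membrane proteins, of which the first hinders the fusion of enveloped viruses and the second tethers budding virions to the cell surface. On STD, Ifitm3 ran from 7.04 to 8.08 (median 7.43) in Aw and from 7.63 to 8.50 (median 8.11) in A+ mice. On TWD it ran from 7.16 to 8.69 (median 8.15) in Aw and had a median of 8.58, with its lowest value at 7.56, in A+ mice. Its log2 difference was 0.56 ± 0.127 (SE; limma, adjusted p = 0.0043). Bst2 ran on STD from 6.17 to 7.18 (median 6.80) in Aw and from 6.89 to 7.61 (median 7.21) in A+ mice, and on TWD from 6.27 to 8.37 (median 7.19) and from 6.62 to 8.24 (median 7.65). Its log2 difference was 0.55 ± 0.144 (SE; limma, adjusted p = 0.0178). In both genes 9 of 9 A+ mice on STD lay above the Aw median, but on TWD only 8 of 12 did for Ifitm3 and 9 of 12 for Bst2. The mouse with the highest Bst2 value, 8.37 in AwTw/TWD, also had the highest Ttr value of the 45 mice, 18.08.

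Ifit1 and Isg15 were also higher on average in A+ mice, but their differences did not pass the test over all genes. Ifit1 binds viral RNA that lacks host cap methylation, and its difference was 0.29 ± 0.115 (SE; limma, adjusted p = 0.188). Isg15 is a ubiquitin-like protein that is conjugated to other proteins, and its difference was 0.29 ± 0.109 (SE; limma, adjusted p = 0.164). In both genes the A+ and Aw ranges overlapped on either diet. On STD, Isg15 ran from 4.91 to 5.95 (median 5.51) in Aw and from 5.54 to 6.15 (median 5.77) in A+ mice.

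Usp18 removes ISG15 from proteins and dampens signalling at IFNAR2. It ran on STD from 4.92 to 6.18 (median 5.54) in Aw and from 5.68 to 6.17 (median 5.94) in A+ mice, and on TWD from 5.42 to 6.20 (median 5.82) and from 5.70 to 6.81 (median 6.21). In A+ mice 9 of 9 on STD and 11 of 12 on TWD lay above the Aw median, and the log2 difference was 0.38 ± 0.0909 (SE; limma, adjusted p = 0.00589). Isg15 and its protease thus differed in whether they passed the test, but the difference between them was not tested.

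Irf7 and Irf9 are the transcription factors of the set, Irf7 as the amplifier of interferon production and Irf9 as the DNA-binding subunit of ISGF3. Irf7 ran on STD from 5.64 to 6.42 (median 6.11) in Aw and from 6.21 to 6.95 (median 6.48) in A+ mice, with a log2 difference over both diets of 0.44 ± 0.109 (SE; limma, adjusted p = 0.0111). Irf9 had the smallest standard error and the smallest p of the 9 genes, with a log2 difference of 0.46 ± 0.0736 (SE; limma, adjusted p = 2.27e-05). All 21 A+ mice lay above the Aw median of their diet for Irf9, 9 of 9 on STD and 12 of 12 on TWD. This held for no other member on TWD. The Irf9 gene overlaps Rnf31 on the same strand and Irf7 overlaps Phrf1 on the opposite strand, so reads in the overlaps may have been shared. Ifit3 has a close copy, Ifit3b, whose values correlated with it at r = 0.67 over the 45 mice, and reads may have been split between them.

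**Figure D1:**
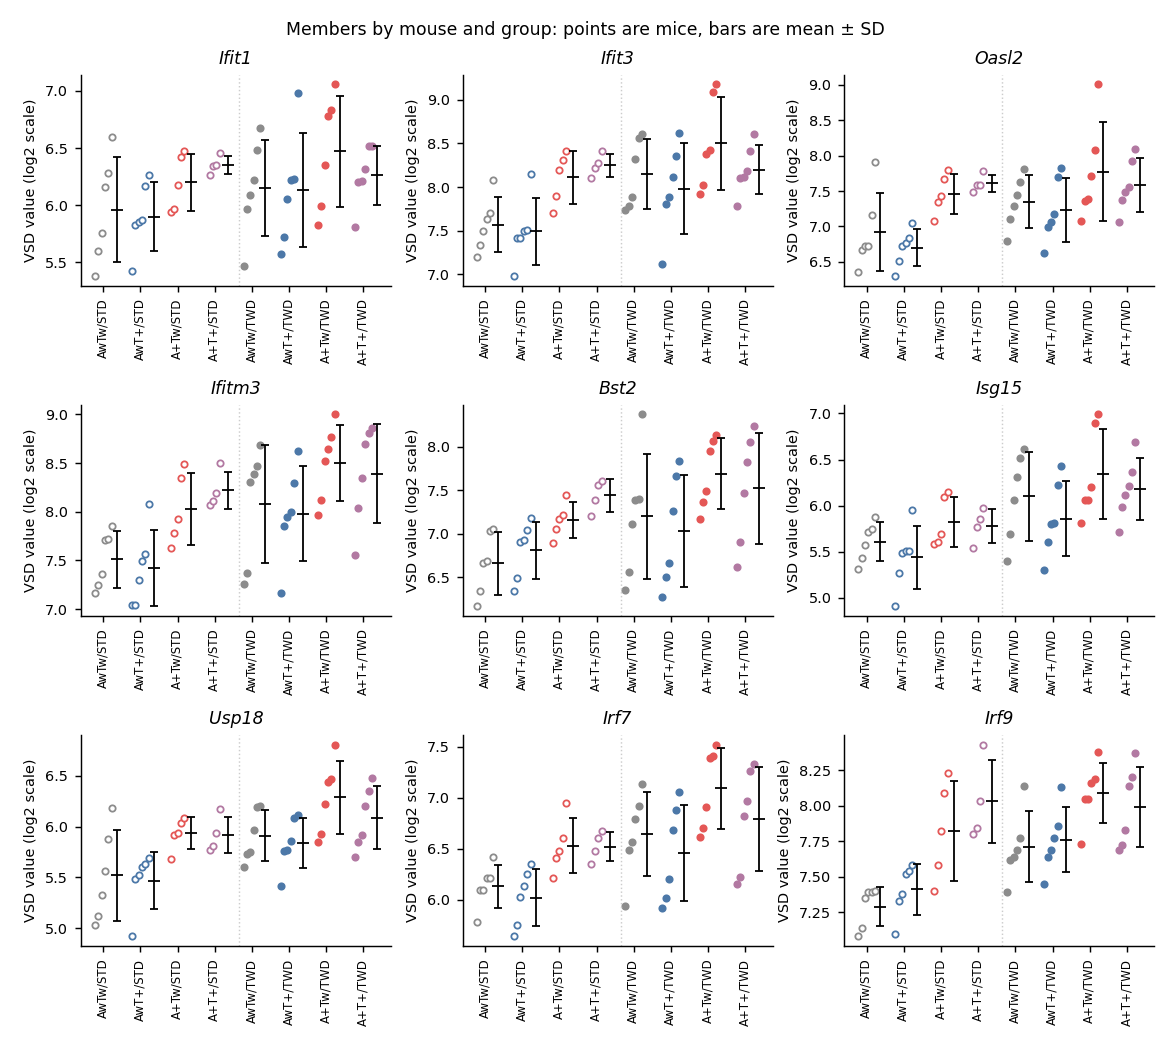
VSD values on the log2 scale (y axis) of the 9 genes in each of the 45 mice, by group (x axis). Points are mice, open on STD and filled on TWD, with the mean ± SD beside them. The 9 A+ mice on STD lie above the Aw median of that diet for all 9 genes, while the ranges of Aw and A+ mice overlap in every gene.

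Within batches, the differences kept their sign but most lost the call, in fits that hold fewer mice. The share of all genes called in these fits is not given here, so the counts are not read as a result about the members. In the 20 mice of batch 0 the log2 differences ran from 0.35 for Isg15 to 0.74 for Oasl2, and only Irf9 passed (0.60, limma adjusted p = 0.00335). In the 25 mice of batch 1 they ran from 0.07 for Ifit1 to 0.51 for Ifitm3, and none passed, with Irf9 at 0.41 (limma adjusted p = 0.0659). Only 1 A+Tw/STD mouse was in batch 0, so that its spread there was assumed to be that of the other groups.

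Choroid plexus and microglial markers moved with the A+ genotype. The mean of 11 choroid plexus markers ran from 5.84 to 10.13 (median 7.12) in Aw and from 6.13 to 9.93 (median 8.83) in A+ mice. All 11 were higher on average, and 0 of 11 passed the test. With the choroid plexus mean as a covariate, 4 of the 9 genes passed, namely Ifit3 (0.43, limma adjusted p = 0.0391), Oasl2 (0.51, 0.0222), Ifitm3 (0.42, 0.038) and Irf9 (0.44, 0.000153). Bst2 was at 0.34 (limma adjusted p = 0.13), Irf7 at 0.32 (0.0939) and Usp18 at 0.30 (0.0509), and these no longer passed. The mean of 16 microglial markers ran from 8.72 to 9.29 in Aw and from 9.38 to 10.03 in A+ mice, without overlap, and 13 of the 16 were called higher. For markers of plaque-associated microglia, 14 of 15 were called higher and the means ran from 7.55 to 8.18 in Aw and from 8.82 to 9.46 in A+ mice. The part of the microglial markers in the difference of the 9 genes was not tested. Of 10 endothelial markers (highest values Flt1 at 9.36 and Cldn5 at 8.80), 8 neuron markers (Camk2a, then Fibcd1 at 11.33) and 4 erythroid markers (Hbb-bs at 7.26, Hba-a2 at 7.10) none was called. Of 8 astrocyte markers 2 were called higher, neither of them the 2 with the highest values (Slc1a2 at 14.21, Aldoc at 13.95). Of 7 oligodendrocyte markers 1 was called higher, and it was not Mbp (15.51) or Mobp (13.80), which had the highest values. The markers with the highest values in the other lists were Csf1r at 10.82 and C1qa at 10.74 for microglia, Ctsd at 13.31 and Cd63 at 10.07 for plaque-associated microglia, and Ttr at 13.92 and Kl at 9.50 for choroid plexus. T cell genes were represented by Trac alone, at 5.25 to 6.20 in Aw and 5.26 to 5.99 in A+ mice, and 0 of 5 neutrophil genes were in the table.

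Between single groups, Irf9 was the only member that passed the test, and only in A+T+ mice on STD. The Irf9 values of the A+T+/STD mice were 7.80, 7.84, 8.03 and 8.43, those of the 6 AwTw/STD mice ran from 7.08 to 7.40 (median 7.37), and those of the 6 AwT+/STD mice from 7.10 to 7.58 (median 7.45). The A+T+ values thus lay above both control groups without overlap. The log2 difference was 0.75 ± 0.157 (SE; limma, adjusted p = 0.00435) against AwTw/STD, where 1.22% of all genes were called higher, and 0.62 ± 0.156 (SE; limma, adjusted p = 0.0341) against AwT+/STD, where 0.918% were called higher and 0.0315% lower. Without the mouse at 8.43 the first difference was 0.62 (limma adjusted p = 0.0694) and the second 0.50 (0.282). In a fit of these groups alone Irf9 missed the threshold against AwT+/STD (0.62, limma adjusted p = 0.0535), and Oasl2 passed in its place. The call against AwT+/STD was also lost without A+T+/STD mouse 2 or AwT+/STD mouse 2, 3 or 5. In A+Tw/STD mice the Irf9 values were 7.40, 7.58, 7.82, 8.09 and 8.23, and the difference from AwTw/STD was 0.52 ± 0.147 (SE; limma, adjusted p = 0.103), in a comparison where 0.918% of all genes were called higher and 0.00629% lower. The Ttr medians of these groups were 15.14 and 11.16. At an unadjusted p below 0.05, 4 of the 9 members stood there beside 5.66% of all genes, and 7 of 9 beside 7.15% for A+T+ against AwT+. For A+T+ against AwTw there were 6 of 9, beside 14.3% of all genes.

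The other members were also higher on average in A+T+/STD mice than in the controls, but their differences did not pass. Bst2 was 7.20, 7.39, 7.56 and 7.61 in A+T+/STD mice and ran from 6.17 to 7.05 in AwTw/STD mice. Ifit3 was 8.10, 8.22, 8.28 and 8.41 against 7.20 to 8.08, and Ifitm3 was 8.07, 8.11, 8.19 and 8.50 against 7.16 to 7.85. With Irf9, these were the 4 members whose values did not overlap between the groups, as in 2.82% of all genes. The log2 differences were 0.81 ± 0.308 for Bst2, 0.69 ± 0.245 for Ifit3 and 0.73 ± 0.271 for Ifitm3 (SE; limma, adjusted p = 0.227, 0.195 and 0.212). Ttr moved with these values, at 15.93, 16.50, 16.73 and 17.20 in A+T+/STD and 9.19 to 16.64 in AwTw/STD mice. Against AwT+/STD, 5 members did not overlap (Ifit1, Irf9, Oasl2, Bst2 and Usp18), beside 3.45% of all genes.

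On TWD no member passed between A+ and Aw groups, and the shares of all genes called higher were 0.818% for A+Tw against AwTw, 0.692% for A+T+ against AwTw and 0.736% for A+T+ against AwT+. Called lower were 0.00629%, 0.0377% and 0.0252%. At an unadjusted p below 0.05 there were 3, 1 and 0 members in these comparisons, beside 5.2%, 7.76% and 4.85% of all genes. Ttr moved in the same direction, with medians of 9.72 in AwTw/TWD, 13.83 in AwT+/TWD, 15.93 in A+Tw/TWD and 16.19 in A+T+/TWD mice. In A+Tw/TWD mice the 9 log2 differences from AwTw/TWD ran from 0.27 to 0.55 (SE 0.142 to 0.279), and in A+T+/TWD mice from 0.08 to 0.37 (SE 0.142 to 0.279). All 9 were positive in each of these comparisons. The A+ effect on TWD minus that on STD ran from -0.32 ± 0.233 for Ifit3 to 0.04 ± 0.221 for Isg15 (limma, adjusted p from 0.917 to 0.995), and 0 of 9 members were past an unadjusted p of 0.05, beside 2.59% of all genes. A difference of the A+ effect between the diets was thus not shown.

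No member passed between mice with and without the tau transgene. On STD, AwT+ minus AwTw ran from -0.21 ± 0.247 for Oasl2 to 0.18 ± 0.275 for Bst2 (SE; limma, adjusted p = 0.999 for each), and 2 of 9 differences were positive. On TWD it ran from -0.24 to 0.05, with 1 of 9 positive. No gene of the table was called higher or lower in either comparison, and at an unadjusted p below 0.05 there were 2.39% of genes on STD and 3.04% on TWD, none of them a member. A+T+ minus A+Tw ran from -0.01 to 0.33 on STD and from -0.30 to -0.10 on TWD. Of all genes, 0.00629% were called higher in the first of these and 0% in the second, with 3.88% and 1.31% at an unadjusted p below 0.05 and 0 members in either. The A+ effect with tau minus that without tau ran from -0.05 to 0.16 (SE 0.146 to 0.286; limma, adjusted p = 1 for each).

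**Figure D2:**
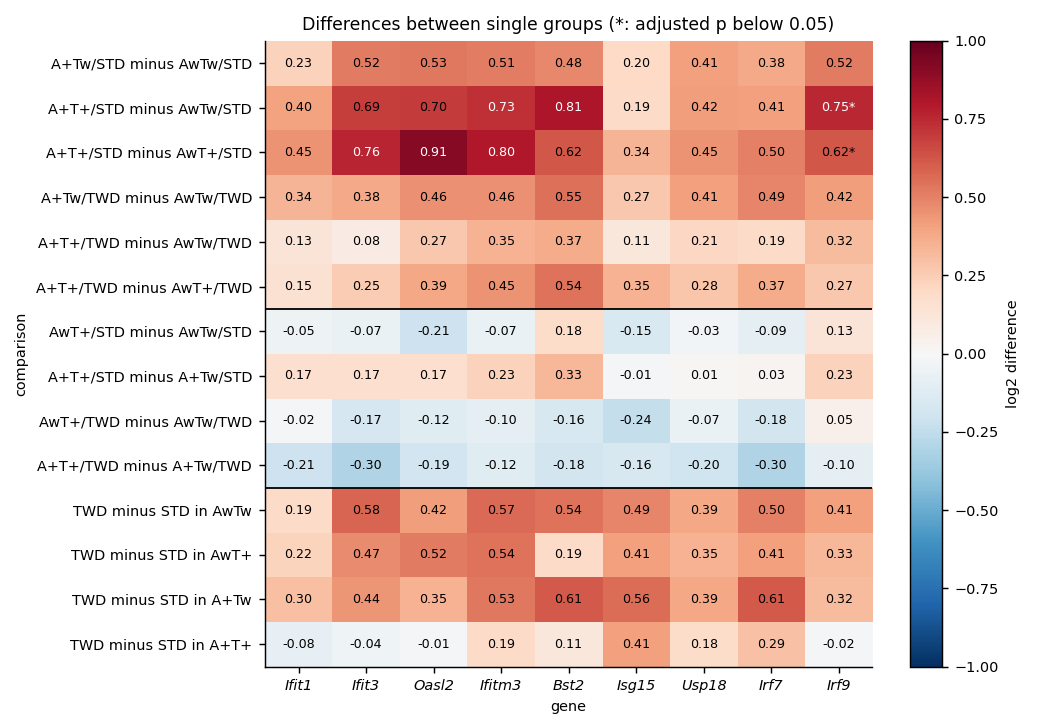
Log2 differences (colour and number) of the 9 genes (x axis) between single groups (y axis), with an asterisk where the limma adjusted p was below 0.05. A+ minus Aw differences fill the upper block with positive values, tau differences in the middle block lie between -0.30 and 0.33, and the bottom block holds the diet differences, with A+T+ mice last.

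In a fit with a common diet difference for all genotypes, 8 of the 9 genes were called higher on TWD and none lower. Of all genes, 16% were called higher and 13.4% lower in the same fit. The median log2 difference of the members was 0.37, beside 0.00 for all genes.

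Isg15 was higher in most TWD mice. It ran from 4.91 to 6.15 with a median of 5.61 in the 21 STD mice and from 5.30 to 6.99 with a median of 6.09 in the 24 TWD mice. Of the TWD mice, 21 of 24 lay above the STD median of their own genotype, the most of any member. The log2 difference was 0.46 ± 0.105 (SE; limma, adjusted p = 0.0157).

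Irf7 ran from 5.64 to 6.95 (median 6.25) on STD and from 5.92 to 7.52 (median 6.80) on TWD, with a difference of 0.46 ± 0.106 (SE; limma, adjusted p = 0.0157). Ifitm3 ran from 7.04 to 8.50 (median 7.72) on STD and had a median of 8.33 on TWD, with its lowest value at 7.16, with a difference of 0.47 ± 0.124 (SE; limma, adjusted p = 0.0157). In both genes 19 of 24 TWD mice lay above the STD median of their genotype, as for Irf9 and Usp18, and in every member the diets overlapped. The differences of Ifit3 (0.38), Usp18 (0.33) and Irf9 (0.28) passed as well, with adjusted p of 0.0184, 0.0157 and 0.0157 (limma). Ifit3b, the close copy of Ifit3, did not pass for diet (0.17, limma adjusted p = 0.172). Between A+ and Aw mice Ifit3b did pass (0.47, limma adjusted p = 0.00241). Oasl2 (0.34, limma adjusted p = 0.0405) and Bst2 (0.37, 0.0467) passed narrowly, and Ifit1 did not (0.17, 0.243). With 1 mouse left out, Oasl2 lost the call for 17 of the 45 mice and Bst2 for 24.

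The diet calls were not the same in both batches, in fits that hold fewer mice. The share of all genes called in these fits, or in the fit with the score below, is not given here. The counts are therefore not read as a result about the members. In batch 0 none of the 9 passed (limma adjusted p from 0.82 to 0.978), with log2 differences from 0.03 for Bst2 to 0.49 for Isg15. In batch 1, Ifitm3 (0.62), Bst2 (0.58), Irf7 (0.55), Isg15 (0.39) and Irf9 (0.34) passed, and Ifit1 was at -0.02. The main axis of variation between mice that the groups do not explain was also taken as a score with an SD of 1. Its gene weights were applied to the full values of each mouse, so the score also holds differences between groups and diets. The mean of the score was -0.45 on STD and 0.39 on TWD. In batch 1 these means were -0.66 and 0.72, and in batch 0 they were -0.11 and 0.07. With this score as a covariate, which can also take up part of the diet difference itself, no member passed (limma adjusted p from 0.554 to 0.78). The differences of Bst2 (0.13), Ifitm3 (0.24), Irf9 (0.18), Irf7 (0.33) and Isg15 (0.34) were then smaller than without it, and those of Ifit1 (0.33), Ifit3 (0.38), Oasl2 (0.35) and Usp18 (0.33) were at or above those without it. Choroid plexus markers were lower on average on TWD (11 of 11 genes, median log2 difference -0.50, 0 called), and with their mean as a covariate the same 8 members passed as without it. Of the 16 microglial markers 8 were called higher and 1 lower on TWD, with a median log2 difference of 0.15. Of 7 oligodendrocyte markers 4 were higher (median 0.20), of 8 astrocyte markers 3 were higher and 3 lower, of 10 endothelial markers 2 were higher and 1 lower, and of 15 markers of plaque-associated microglia 2 were higher. Of all genes, 16% were called higher and 13.4% lower in the same fit. The counts of endothelial and plaque-associated markers lay near these shares and are not read as a result. The part of these markers in the diet difference was not tested.

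**Figure D3:**
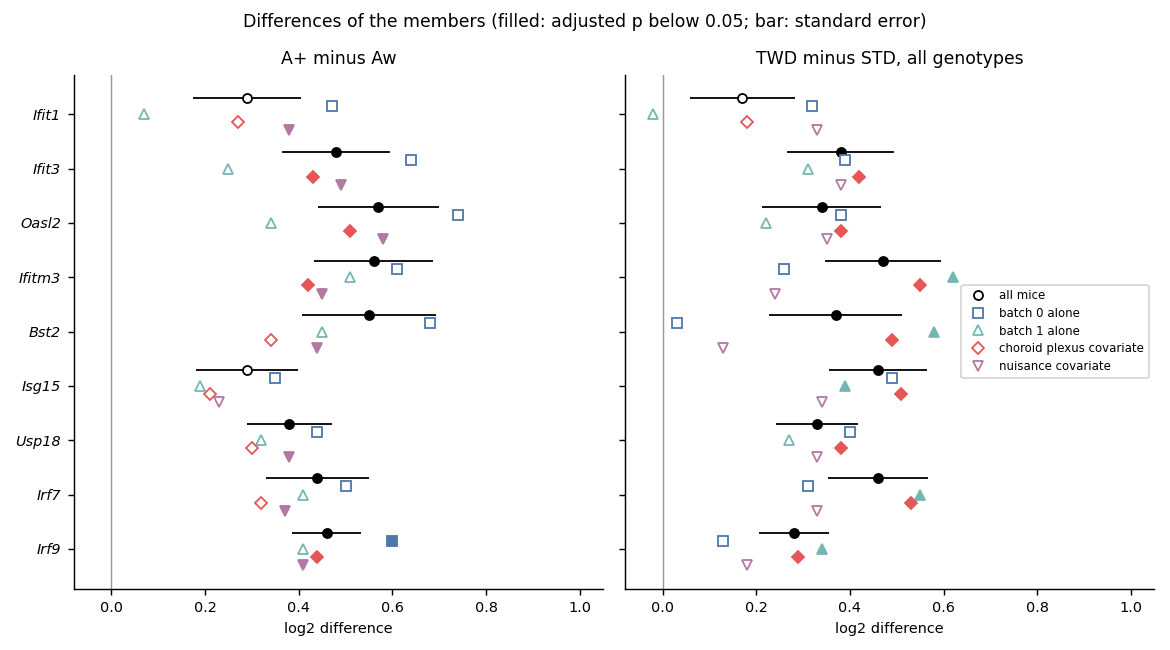
Log2 differences (x axis) of the 9 genes (y axis) between A+ and Aw mice (left) and between TWD and STD (right). Symbols show all mice with their standard error, each batch alone, and fits with the choroid plexus mean or the nuisance score as a covariate. The nuisance score has the gene weights of the main axis of unexplained variation but also holds differences between groups and diets. Filled symbols have a limma adjusted p below 0.05: 7 of 9 on the left and 8 of 9 on the right in all mice, and none on the right in batch 0 or with the nuisance score.

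Within single genotypes no member passed for diet, but in AwTw mice this count was not stable. In AwTw mice the 9 differences ran from 0.19 for Ifit1 to 0.58 for Ifit3, and Irf9 stood just outside the threshold with 0.41 ± 0.14 (SE; limma, adjusted p = 0.0503), in a comparison where 6.01% of all genes were called higher and 3.34% lower. Leaving out 1 mouse changed the count in 13 of 45 cases, to 7 without AwTw/TWD mouse 5, to 3 without AwTw/TWD mouse 4 and to 1 in the other 11, of which 9 left out a mouse of another genotype. With the choroid plexus mean as a covariate 6 passed. For these refits the share of all genes called is not given here. Their counts are therefore not read as a result about the members. The AwTw/TWD values of Irf9 ran from 7.39 to 8.14 (median 7.66), and those of AwTw/STD from 7.08 to 7.40. The differences ran from 0.19 to 0.54 in AwT+ mice and from 0.30 to 0.61 in A+Tw mice, where 0% of all genes were called in either genotype. At an unadjusted p below 0.05 there were 6 members in AwTw, 4 in AwT+ and 6 in A+Tw mice, beside 40.2%, 7.44% and 4.43% of all genes.

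In A+T+ mice the diet differences were smaller, from -0.08 for Ifit1 to 0.41 for Isg15 (SE 0.157 to 0.308; limma, adjusted p = 0.998), and 0 members were past an unadjusted p of 0.05, beside 2.57% of all genes. Ifit3 had a mean of 8.25 ± 0.13 (SD, n = 4) on STD and 8.20 ± 0.28 (SD, n = 6) on TWD. Oasl2 had 7.61 ± 0.12 (SD, n = 4) and 7.58 ± 0.38 (SD, n = 6), and Irf9 had 8.03 ± 0.29 (SD, n = 4) and 7.99 ± 0.28 (SD, n = 6). Whether the diet difference in A+T+ mice differs from that in any one other genotype was not tested.

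Group means were ordered in a similar way in the 9 genes. The highest mean was that of A+Tw/TWD in 9 of 9, and the lowest that of AwT+/STD in 7 and of AwTw/STD in 2 (Irf9 and Bst2). Neighbours in this order differed by less than the larger of their SDs in all but 1 of 63 pairs. The exception was Irf9, with 7.41 in AwT+/STD and 7.71 in AwTw/TWD. For Irf9 the order from lowest to highest was AwTw/STD at 7.29 ± 0.14 (n = 6), AwT+/STD at 7.41 ± 0.18 (n = 6), AwTw/TWD at 7.71 ± 0.25 (n = 6), AwT+/TWD at 7.76 ± 0.23 (n = 6), A+Tw/STD at 7.82 ± 0.35 (n = 5), A+T+/TWD at 7.99 ± 0.28 (n = 6), A+T+/STD at 8.03 ± 0.29 (n = 4) and A+Tw/TWD at 8.09 ± 0.21 (n = 6, all SD). The 4 Aw groups were thus below the 4 A+ groups for Irf9, and the same held for Ifit1, Oasl2 and Usp18.

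Mice of the same group also differed together. With group and batch removed, the 36 correlations between members over the 45 mice ran from -0.01 to 0.84 with a median of 0.55, and 21 exceeded 0.5. All genes of a mouse share 1 library, which such values also carry. Ifit1, Ifit3 and Oasl2 went together, with r = 0.76 for Ifit1 and Ifit3, 0.74 for Ifit3 and Oasl2 and 0.58 for Ifit1 and Oasl2. Ifit1 and Ifit3 are neighbours on chromosome 19 (GRCm38, 34640871 to 34650009 and 34583531 to 34588731). Ifitm3, Bst2 and Irf7 went together as well, with r = 0.84 for Ifitm3 and Bst2 and 0.79 for Irf7 and Bst2. Isg15 varied with genes of both sets, with r = 0.75 for Ifit3 and 0.79 for Ifitm3, and Usp18 had r = 0.74 with Oasl2 and 0.67 with Ifit3. Ifit1 was close to unrelated to Bst2 (r = -0.01) and Ifitm3 (r = 0.09). Irf9, the member with the clearest A+ difference, varied least with the others apart from Ifit1, with r from 0.08 to 0.51.

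Compared with marker lists in the same way, Bst2 varied with the mean of the choroid plexus markers (r = 0.69), followed by Irf7 and Ifitm3 (r = 0.51 each) and Usp18 (r = 0.47), while Ifit1 and Irf9 were at 0.10 and 0.12. With the mean of the microglial markers the members had r from -0.23 to 0.24. For markers of plaque-associated microglia r ran from -0.07 for Ifit1 to 0.37 for Ifitm3. For endothelial markers it ran from 0.06 for Irf9 and Oasl2 to 0.44 for Ifitm3, and for astrocyte markers from -0.33 for Bst2 to -0.05 for Ifit1 and Irf9. Ifit1 and Ifit3 had r = 0.51 and 0.49 with 5 perivascular macrophage markers, of which Mrc1 and F13a1 had the highest means, 5.83 and 5.72. In AwT+/TWD, the same mouse had the lowest value of its group for all 9 members and the lowest Ttr value of the 45 mice, 7.49. In 5 of the 8 groups the mouse that was most often lowest had the lowest Ttr value of its group. The mouse most often highest, however, also had the lowest Ttr value of its group in AwTw/STD (9.19) and in A+Tw/STD (11.05). Only in A+T+/TWD did the mouse most often highest have the highest Ttr value of its group, 17.08.

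**Figure D4:**
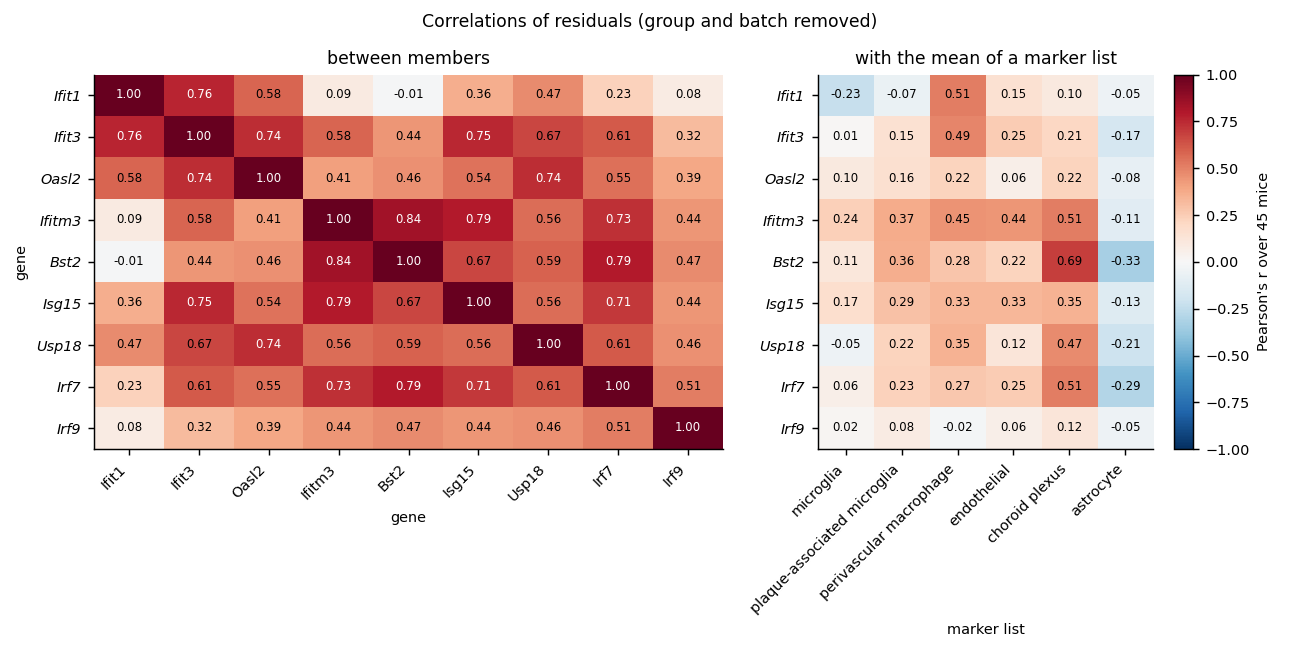
Pearson's r over 45 mice after removal of group and batch, between the 9 genes (left) and between each gene (y axis) and the mean of a marker list (right). Ifit1, Ifit3 and Oasl2 form a block at the upper left, Ifitm3 and Bst2 reach 0.84, and Bst2 reaches 0.69 with choroid plexus markers.

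The genes most like the members were taken by the correlation with their mean standardised value. After removal of group and batch, the 10 most alike of 15888 genes were Ifi27l2a (r = 0.80), Lgals3bp (0.77), H2-Q4 (0.73), H2-Eb1 (0.72), Rtp4 (0.72), Igtp (0.72), H2-Ab1 (0.72), H2-D1 (0.70), Cd74 (0.70) and H2-Aa (0.70), over 45 mice. H2-Eb1, H2-Ab1, H2-Aa and Cd74 belong to MHC class II antigen presentation, and H2-Q4 and H2-D1 to class I. The class I H2 genes are close copies of each other, so reads may have been shared among them. On the values themselves the 5 most alike were Ifi27l2a (0.89), Lgals3bp (0.87), H2-D1 (0.86), H2-K1 (0.86) and H2-Q4 (0.85). Among the members, the correlation of each with the mean of the other 8 after removal of group and batch ran from 0.40 for Ifit1 and 0.49 for Irf9 to 0.81 for Ifit3.

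Of the wider pathway, 92 of 120 listed genes were in the table. Between A+ and Aw mice 24 of these were called higher and none lower, beside 3.11% and 0.661% of all genes, and the median log2 difference was 0.18 beside -0.02 for all genes. None of the 12 interferon genes themselves was in the table, which holds only genes above a mean count set by the authors. Among 12 receptor and JAK-STAT genes, 3 were called higher: Socs3, a feedback inhibitor of JAK signalling (0.47 ± 0.103), Ifnar2, a subunit of the type I receptor (0.33 ± 0.0766), and Ifngr1, a subunit of the interferon gamma receptor (0.24 ± 0.0528; SE, limma, adjusted p = 0.0027, 0.00436 and 0.0021).

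Among 6 other interferon regulatory factors, Irf8, which myeloid cells such as microglia need (1.08 ± 0.0566), and Irf5, also a factor of myeloid cells (0.67 ± 0.0669), were higher in A+ mice (SE; limma, adjusted p = 1.82e-18 and 4.89e-10). Of 16 nucleic acid sensors and adaptors 4 were higher. They were Unc93b1, the chaperone of endosomal Toll-like receptors (0.62 ± 0.0718), Tmem173, which encodes STING (0.30 ± 0.0675), Dhx58, a cytosolic RNA helicase (0.30 ± 0.0818), and the RNA receptor Tlr7 (0.48 ± 0.132), with limma adjusted p between 1.67e-08 and 0.0269. None of 4 genes of ISG15 conjugation passed (median log2 difference 0.25).

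Of 42 other effectors, 12 were higher in A+ mice, led by Lgals3bp, a secreted glycoprotein (0.95 ± 0.146), Ifi207 (0.47 ± 0.0736), Ifi27l2a (0.69 ± 0.125), the chemokine Cxcl10 (0.53 ± 0.105) and Epsti1 (0.27 ± 0.0528; SE, limma, adjusted p from 9.37e-06 to 0.00059). Of 12 interferon-induced GTPases, Gbp3 (0.37), Irgm1 (0.35) and Gbp2 (0.33) were higher. The response element core was present in the promoters of all 8 GTPase genes that had an entry, in 14 of 33 other effectors, in 4 of 12 sensors and in 0 of 4 genes of ISG15 conjugation. It was also present in 2 of 10 receptor and JAK-STAT genes and in 1 of 5 other interferon regulatory factors. Among all genes of the table with an entry the share was 3.62%.

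With diet, 9 of the 92 genes were called higher and 7 lower, shares below the 16% and 13.4% of all genes, and the median log2 difference was 0.06 beside 0.00 for all genes. These counts are therefore no result about the pathway, and the genes that passed are given as values. Trex1, an exonuclease that degrades cytosolic DNA (0.37 ± 0.0968), Ifi35 (0.31 ± 0.0932), Lgals3bp (0.43 ± 0.143) and Ifi27 (0.33 ± 0.117; SE, limma, adjusted p from 0.0157 to 0.0333) were higher on TWD. Jak1 and Jak2, the kinases of interferon receptors, fell by 0.28 and 0.33 on the log2 scale (limma, adjusted p = 0.0193 and 0.0386). Tlr3, the endosomal receptor for double-stranded RNA, fell by 0.73 (limma, adjusted p = 0.0157), while Unc93b1 rose by 0.24 (0.0176). Irf5 (0.20) and Irf3 (0.27) were higher, as was Gbp3 (0.29), and Gbp4 was lower (-0.30). With the nuisance score as a covariate, which can also take up part of the diet difference, 0 of the 92 were called higher.

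**Figure D5:**
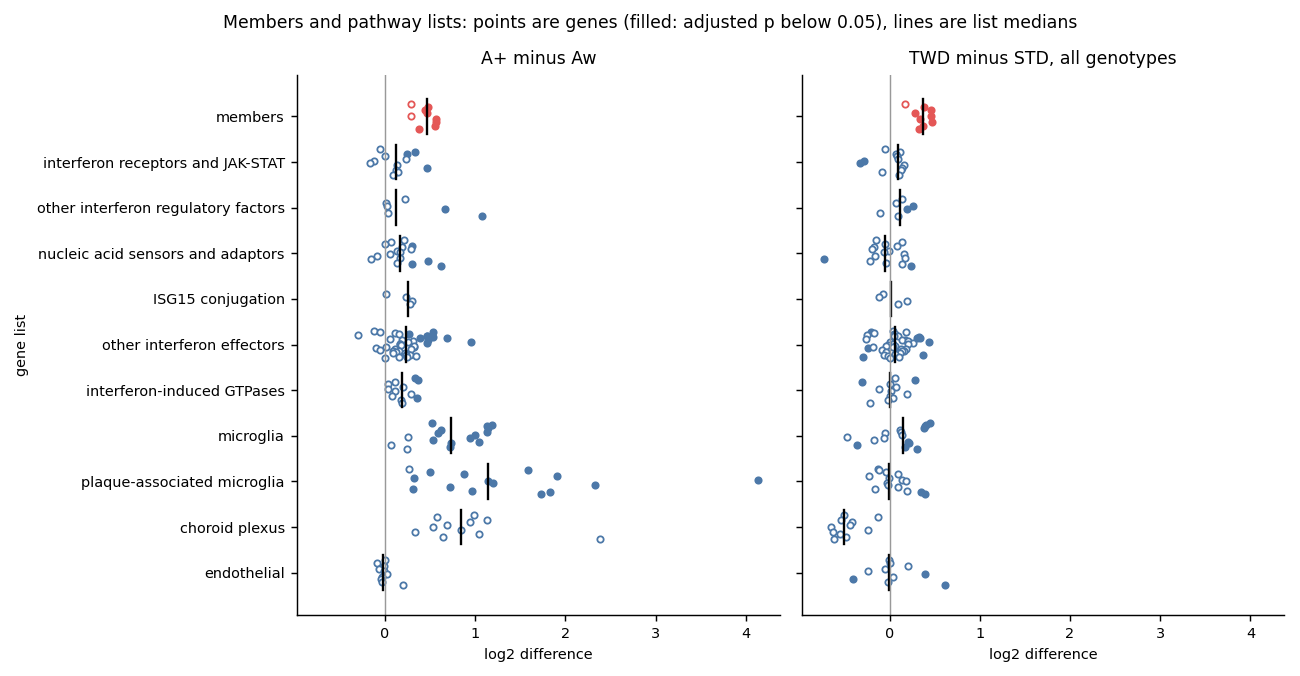
Log2 differences (x axis) of the 9 members, of the genes in 6 pathway lists and in 4 marker lists (y axis) between A+ and Aw mice (left) and between TWD and STD (right), with a vertical line at the median of each list and filled points where the limma adjusted p was below 0.05. The members' medians are 0.46 and 0.37, those of the plaque-associated microglia 1.14 and 0.00, and those of the choroid plexus markers 0.84 and -0.50.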

How the data were processed

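Hippocampal poly(A) RNA of 45 mice was sequenced as single 50-base reads. The authors trimmed the reads (Trimmomatic 0.38), removed rRNA and mitochondrial reads (Bowtie2 2.2.3), quantified transcripts (kallisto 0.44.0, mm10), dropped genes with a low mean count and applied the variance-stabilizing transformation of DESeq2 1.22.2. The deposited values are on a log2-like scale after batch removal with limma 3.38.3. Neither counts nor the authors' own tests were used, so the depth per mouse is unknown.

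The 9 members, the pathway and marker lists and the tests were chosen with earlier results of these data known. Symbols came from GENCODE M21. The 8 groups were fitted with batch as a covariate in limma 3.58.1 (R 4.3.3, empirical Bayes with a mean trend), and diet over all genotypes in a fit with genotype and batch as further terms. Tests were two-sided, adjusted over 15897 genes by Benjamini-Hochberg, at 0.05. The test the study used needs counts, so limma took its place. On simulated data with 200 changed genes of log2 size 1 among 15897, 98.5% were found for genotype and 99% for diet. Of the calls, 5.29% and 6.6% were false. The members' differences were smaller than 1, and each simulated gene varied on its own. These shares therefore do not tell how many changes of the members' size are found. The nuisance score is the first principal component of the residuals, applied to each mouse. Genes named besides the members were, per pathway list, at most 5 called genes with the smallest adjusted p, the 10 and 5 genes most like the members, the 2 markers of each list with the highest mean value, and App. Ifit3b was named as the close copy of Ifit3. The result of 1 listed gene is not reported here by name.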

Additional observations from a re-analysis of the deposited data

Results flagged for a closer look

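Usp18 in the AwT+/STD group had a mouse at 4.92, with the nearest of the other 5 mice at 5.49, a gap of 0.742 of the range of the group. It was the only mouse that stood apart in this way in the 72 combinations of gene and group examined, where the nominal level of the criterion is about 1 in 20 groups and the genes share the same mice. Without any one mouse, the Usp18 difference between A+ and Aw mice stayed between 0.36 and 0.41 (limma, adjusted p from 0.00147 to 0.016).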

How the results depend on the processing

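No paired analysis was possible because mouse numbers within groups only follow the order of deposition and pair no animals. The number of members called higher between A+ and Aw mice was 7 with any mouse left out, 1 in batch 0, 0 in batch 1 and 4 with the choroid plexus mean as a covariate. That for diet over all genotypes was 6 to 8 with 1 mouse left out, 0 in batch 0, 5 in batch 1, 5 of the 5 members that remained among genes above the 25th percentile of the mean, and 0 with the nuisance score. Ifit1 turned to -0.02 for diet in batch 1, and Bst2 lost the diet call without a batch covariate (0.35, limma adjusted p = 0.052). With the nuisance score, Ifit1 passed between A+ and Aw mice (0.38, limma adjusted p = 0.0115). For A+T+/STD against AwTw/STD the count was 1, 0 in either batch, 2 in a fit of these groups alone and 0 to 1 with 1 mouse left out. Against AwT+/STD it was 1 (Oasl2 in place of Irf9 in a fit of these groups alone), 0 in either batch, with quantile normalization and with the choroid plexus covariate, and 0 to 2 with 1 mouse left out. Diet in AwTw gave 0, but 1 without a batch covariate, 2 above the 25th percentile, 6 with the choroid plexus covariate and 0 to 7 with 1 mouse left out (7 without AwTw/TWD mouse 5, 3 without mouse 4, 1 in 11 other cases). A+Tw/STD against AwTw/STD gave 0, and 0 to 1 with 1 mouse left out. Of the pathway genes, 24 were called higher in A+ mice, 7 in either batch, 11 above the 25th percentile and 20 to 28 with 1 mouse left out. For diet 9 were, 0 in batch 0, 16 with quantile normalization, 0 with the nuisance score, 15 with the choroid plexus covariate and 4 to 13 with 1 mouse left out. The causes were not tested. By Spearman correlation Ifi27l2a had 0.79, and 8 of the 10 genes most like the members were shared. Ifit1, Isg15, Usp18 and Irf7 lie below the 25th percentile of the mean, where the transformation understates changes, and what depth allows for them is unknown.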
